A study of Mus musculus with 5 samples.

Results

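The WNT ligands, receptors and modulators of the mouse embryonic forebrain were read from a deposited table of RNA-seq counts. Members were taken by a rule on gene symbols, set with earlier results of these data known: the numbered Wnt, Fzd, Sfrp, Dkk and Rspo genes together with Axin1, Axin2, Lef1, Tcf7, Lgr5, Nkd1, Notum, Wif1, Znrf3, Rnf43, Sp5, Lrp5 and Lrp6. The rule found 54 genes of the 27451 that carried a symbol: 19 ligands, 12 receptors, 10 secreted antagonists, 7 genes of the R-spondin axis, 3 intracellular regulators and 3 nuclear effectors. Polyadenylated RNA came from untreated C57BL/6 forebrains at stage E12.5, with 3 EedcKO libraries and 2 wild-type libraries described as littermates. The mutant is named EedcKO by the submitters, after Eed, a subunit of the Polycomb complex that methylates histone H3. The sources used here do not give how, in which cells or over which exons Eed was deleted, or whether each library is a separate embryo. P-values thus measure the spread between libraries, which may be technical.

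Library totals lay between 4820630 and 5026381 counts. Eed itself (chromosome 7, 89954654 to 89980983, minus strand, mm10) had 251, 233 and 247 counts in EedcKO 1, 2 and 3, against 404 counts in wild type 1 and 238 counts in the library labelled wild type 2, a level at that of EedcKO and not the one expected from the label. Over all libraries Eed did not pass (log2 fold change -0.40, SE 0.22, edgeR adjusted p = 0.412). Its log2 fold change was -0.75 without the library labelled wild type 2 and 0.043 without wild type 1. With the deleted exons unknown, Eed RNA alone does not settle the label of that library. Every direction below is drawn with that library among the wild type unless it is said to be left out. That library also held the most RNA of a list of 12 surface epithelium genes (28.5, 21.7 and 14.9 CPM in EedcKO 1, 2 and 3, against 20.2 CPM in wild type 1 and 272 CPM in the library labelled wild type 2) and of 20 genes of the cortical hem and choroid plexus (199, 313 and 117 CPM in EedcKO 1, 2 and 3, against 218 CPM in wild type 1 and 848 CPM in the library labelled wild type 2). EedcKO 3 had the lowest sum of both lists. The library labelled wild type 2 was also the highest for all 10 erythroid genes and all 3 tested striated muscle genes. The forebrain label was checked with Emx2, a transcription factor of the embryonic cortex, which had 541, 534 and 636 counts in EedcKO 1, 2 and 3, against 398 counts in wild type 1 and 675 counts in the library labelled wild type 2. Other regional genes of the telencephalon were not even: Pax6, of pallial progenitors, and Tbr1, of early cortical neurons, rose in EedcKO (log2 fold change 0.65 and 0.58, edgeR adjusted p = 0.0286 and 0.0496). Nkx2-1, of the medial ganglionic eminence and hypothalamus, had 69.0, 1.44 and 1.23 CPM in EedcKO 1, 2 and 3, against 182 CPM in wild type 1 and 147 CPM in the library labelled wild type 2 (edgeR adjusted p = 0.406). EedcKO 2 and 3 had Y-linked RNA and almost no Xist, as male embryos do, and the other 3 libraries were female by the same measures. In bulk tissue, fewer cells of a type and less RNA per cell cannot be told apart.

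WNT proteins are secreted, lipid-modified signals that bind Frizzled receptors. In the canonical branch they also engage the co-receptors Lrp5 and Lrp6, which halts the Axin-based complex that degrades beta-catenin, and beta-catenin then works with Lef1 and Tcf7 family factors on target genes such as Axin2 and Sp5. Secreted antagonists either capture WNT (the Sfrp family and Wif1) or block Lrp5 and Lrp6 (Dkk1), and R-spondins raise sensitivity by removing the ubiquitin ligases Znrf3 and Rnf43 from the cell surface. In the embryonic forebrain the cortical hem, at the dorsal midline, is a WNT source and is needed for the hippocampus.

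Of the 54 members, 41 had enough counts to be tested and 3 passed edgeR's quasi-likelihood test at a Benjamini-Hochberg adjusted p of 0.05 over all 13989 genes tested. The secreted antagonist Sfrp1 and the receptor Fzd8 rose in EedcKO, and the receptor Fzd5 fell. Among all genes tested 3.2% passed (1.04% higher and 2.17% lower). The median log2 fold change was -0.16 over the 41 tested members and 0.007 over all tested genes, with 20 members above 0 and 21 below. That split rested on the wild-type libraries. It was 28 above and 13 below without the library labelled wild type 2 (median 0.36, against 0.01 over all genes), and 11 above and 30 below without wild type 1 (median -0.52, against -0.01 over all genes). The groups did not overlap for 5 members that were higher in EedcKO and 2 that were lower, against 16.4% and 17.4% of all tested genes. The remaining 38 tested members had edgeR adjusted p between 0.143 and 0.981. Of the 41 tested members, 8 had an unadjusted edgeR p under 0.05, against 17.2% of all genes. Of these 8, 5 did not pass after adjustment (Fzd2, Wnt4, Lgr5, Fzd4 and Lrp5). The 13 members below the count filter were 8 ligands (Wnt1, Wnt2, Wnt8a, Wnt9b, Wnt10a, Wnt10b, Wnt11 and Wnt16), the antagonists Dkk1, Dkk4, Notum and Sfrp5, and Rspo4. Of these, Dkk4 had 0 counts in every library. With embryo sex as a covariate, a fit that in effect sets EedcKO 1 against both wild-type libraries, edgeR called none of the 41 members and 0 genes in all, while 3 members and 11.5% of all genes had an unadjusted p under 0.05.

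**Figure D1:**
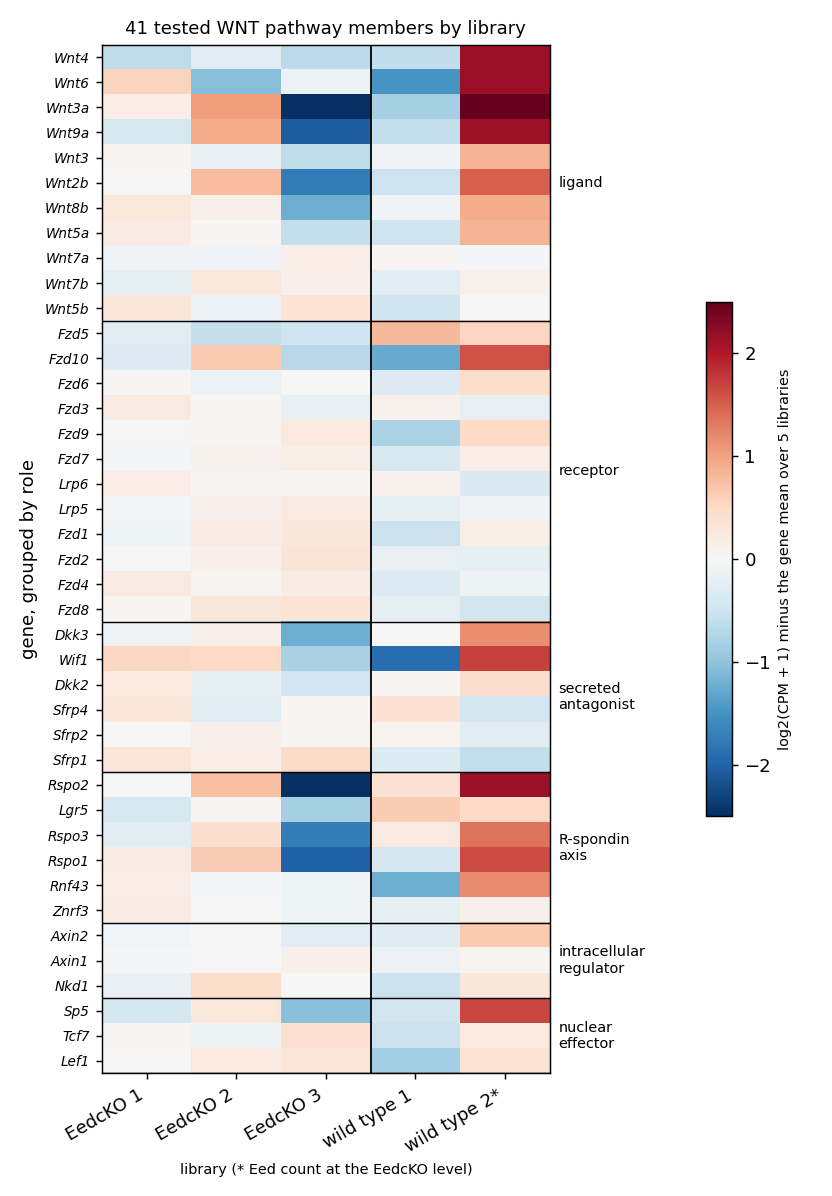
Level of the 41 tested members in each library (columns), grouped by role (rows), as log2 of CPM plus 1 minus the gene's mean over the 5 libraries; red is above and blue below that mean, with colours limited to 2.5 either way. Wnt3a, Wnt9a, Wnt2b and Rspo1 to Rspo3 are red in the library labelled wild type 2 (starred) and blue in EedcKO 3, whereas the Frizzled rows are pale apart from Fzd5, Fzd9 and Fzd10.

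Of the 12 receptors, all tested, 1 rose, 1 fell and 10 did not pass, and 9 had a log2 fold change above 0 (median 0.18). Without wild type 1, 6 were above 0 and 6 below (median 0.076), and 9 were above 0 without the library labelled wild type 2 (median 0.42). Their summed TPM was 906, 973 and 998 TPM in EedcKO 1, 2 and 3, against 735 TPM in wild type 1 and 877 TPM in the library labelled wild type 2, above the sum of any other role in each library. Frizzled receptors bind WNT through a cysteine-rich extracellular domain. Fzd8, a receptor of forebrain progenitors (chromosome 18, 9212163 to 9218136, plus strand, mm10), had 182, 211 and 221 CPM in EedcKO 1, 2 and 3, against 146 CPM in wild type 1 and 126 CPM in the library labelled wild type 2. CPM are counts relative to library size, scaled by TMM. All 3 EedcKO libraries lay above both wild-type libraries. Its mean was 205 ± 20.1 CPM in EedcKO (SD, n = 3) and 136 ± 13.9 CPM in wild type (SD, n = 2), a 1.5-fold difference (log2 fold change 0.59, SE 0.12, edgeR adjusted p = 0.0423). This call held without wild type 1 (adjusted p = 0.0182), the library labelled wild type 2 (0.0499) or EedcKO 1 (0.0424), and was lost without EedcKO 2 (0.158) or EedcKO 3 (0.188). Pax6 and Tbr1 rose beside Fzd8 and Sfrp1, and their part in either result was not tested.

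Fzd5, a receptor known for its part in eye and hypothalamic development (chromosome 1, 64730558 to 64737751, minus strand, overlapped on the plus strand by Gm38058), moved the other way. It had 35, 28 and 30 counts in EedcKO 1, 2 and 3, against 79 counts in wild type 1 and 67 counts in the library labelled wild type 2. The EedcKO counts were all below the wild-type counts. As CPM the means were 6.4 ± 0.790 CPM in EedcKO (SD, n = 3) and 15.1 ± 2.14 CPM in wild type (SD, n = 2), so EedcKO stood at 0.425 of the wild-type level (log2 fold change -1.23, SE 0.24, edgeR adjusted p = 0.0389). On log2 TPM with limma-trend it did not pass. The direction was the same with any library left out (log2 fold change from -1.37 to -1.10), while the call held only without the library labelled wild type 2 (adjusted p = 0.0209) and was lost without wild type 1 (0.0554), EedcKO 1 (0.0851), EedcKO 2 (0.146) or EedcKO 3 (0.181). A list of 13 hypothalamus and diencephalon genes summed to 178, 217 and 159.8 CPM in EedcKO 1, 2 and 3, against 398 CPM in wild type 1 and 395 CPM in the library labelled wild type 2, and all 8 tested genes had a log2 fold change below 0, of which 3 passed (Otp, Fezf1 and Barhl2). Its part in the Fzd5 value was not tested. The 250 bases before the annotated start of Fzd5 (chr1:64737751-64738000, minus strand, RefSeq, GRCm38.p6) are shown because Fzd5 is the one member past the threshold with an entry in the promoter table used. Capitals mark each CG, a palindrome read alike on both strands, of which there are 32.

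Fzd5: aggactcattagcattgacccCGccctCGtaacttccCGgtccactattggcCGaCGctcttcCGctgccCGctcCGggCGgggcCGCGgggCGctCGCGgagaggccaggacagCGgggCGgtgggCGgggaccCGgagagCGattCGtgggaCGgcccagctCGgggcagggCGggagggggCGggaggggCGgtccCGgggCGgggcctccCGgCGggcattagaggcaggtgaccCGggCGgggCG

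Over the windows before all 32851 starts in the table, the median held 6 CG and 5.94% held at least 30. Among the 42 windows of the 34 members in the table, 11 held at least 30, a limit chosen after the windows had been read.

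None of the other 10 receptors passed. Fzd2, the most abundant Frizzled per unit length (207 TPM over the 5 libraries), had 154, 169 and 195 CPM in EedcKO 1, 2 and 3, against 135 CPM in wild type 1 and 132 CPM in the library labelled wild type 2. Both wild-type values lay below all EedcKO values, and the difference did not pass (log2 fold change 0.37, SE 0.11, edgeR adjusted p = 0.143). Fzd4 (log2 fold change 0.42) and the co-receptor Lrp5 (0.26) likewise had groups that did not overlap and did not pass (edgeR adjusted p = 0.259 and 0.280). The log2 fold changes of Fzd1, Fzd7, Fzd3, Fzd9, Lrp6 and Fzd6 were 0.30, 0.16, 0.08, 0.10, 0.19 and -0.16, all with overlapping groups. Fzd9, highest in the library labelled wild type 2 and lowest in wild type 1, had 32.7, 34.5 and 39.1 CPM in EedcKO 1, 2 and 3, against 18.7 CPM in wild type 1 and 47.3 CPM in the library labelled wild type 2. Fzd10, a receptor with a restricted dorsal pattern, had 45, 94 and 34 counts in EedcKO 1, 2 and 3, against 21 counts in wild type 1 and 188 counts in the library labelled wild type 2. The wild-type libraries differed by 8.63-fold in CPM and enclosed all 3 EedcKO values.

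**Figure D2:**
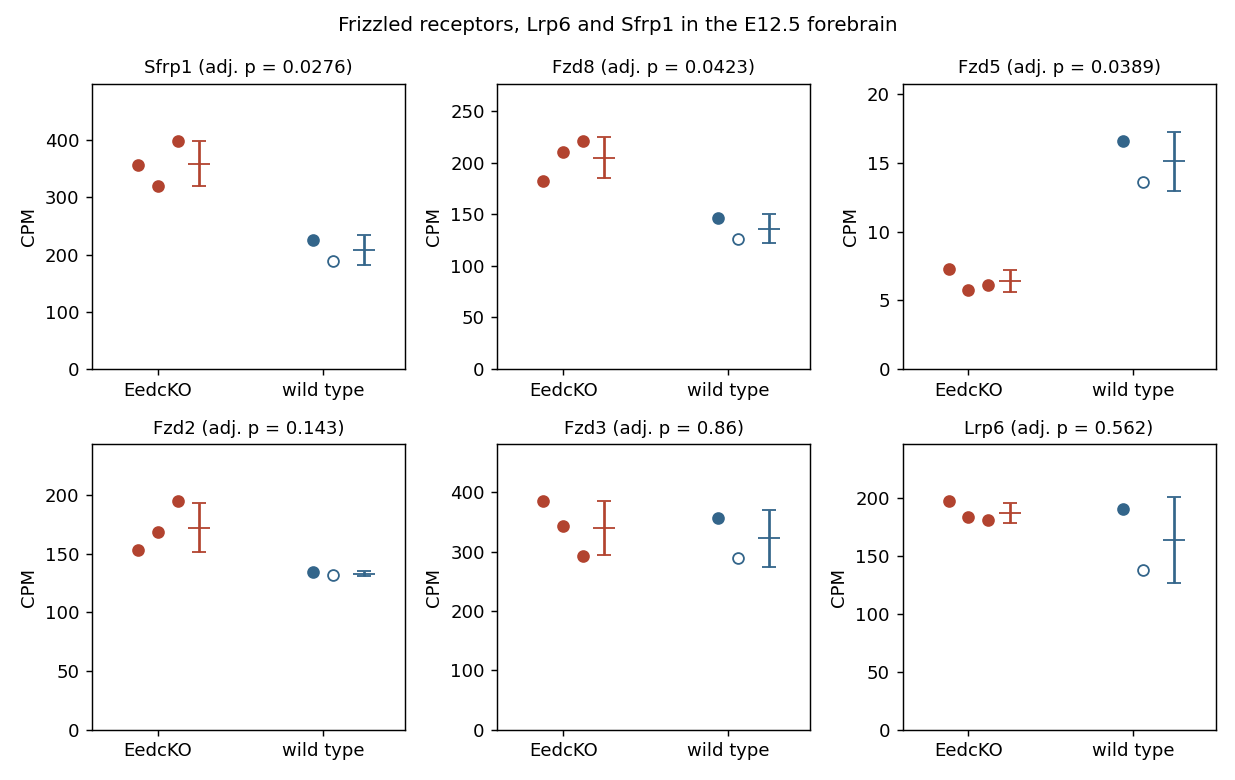
CPM of 6 members in each library, with EedcKO at left and wild type at right; the open circle is the library labelled wild type 2, horizontal bars are means and error bars SD (n = 3 EedcKO, n = 2 wild type). EedcKO points lie above both wild-type points for Sfrp1, Fzd8 and Fzd2 and below them for Fzd5, while those of Fzd3 and Lrp6 overlap the wild type.

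Of the 10 secreted antagonists 6 were tested, and 1 of them, Sfrp1, passed (median log2 fold change -0.20). Sfrp1 was also the most abundant of all 54 members per unit length, at 398 ± 42.3 TPM in EedcKO (SD, n = 3) and 229 ± 27.3 TPM in wild type (SD, n = 2). Sfrp1, a soluble protein with a Frizzled-like WNT-binding domain (chromosome 8, 23411502 to 23449632, plus strand, mm10), had 356, 320.4 and 399 CPM in EedcKO 1, 2 and 3, against 226 CPM in wild type 1 and 189 CPM in the library labelled wild type 2. The lowest EedcKO library stood above the higher wild-type library, and the 1.73-fold rise passed the test (log2 fold change 0.79, SE 0.13, edgeR adjusted p = 0.0276). Without either wild-type library the call held (adjusted p = 0.00891 without wild type 1 and 0.0207 without the library labelled wild type 2). It was lost without EedcKO 1 (0.0662), EedcKO 2 (0.0674) or EedcKO 3 (0.142), where the log2 fold change stayed between 0.71 and 0.86. Its relative Sfrp2 had 56.5, 62.7 and 60.1 CPM in EedcKO 1, 2 and 3, against 60.8 CPM in wild type 1 and 46.4 CPM in the library labelled wild type 2. The groups overlapped (log2 fold change 0.16, SE 0.13, edgeR adjusted p = 0.632).

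Other antagonists were scarcer or uneven within a group. Dkk3, a divergent member of the Dickkopf family, had 46.0, 53.7 and 20.5 CPM in EedcKO 1, 2 and 3, against 49.2 CPM in wild type 1 and 112 CPM in the library labelled wild type 2. The highest value was thus in the library labelled wild type 2 and the lowest in EedcKO 3 (log2 fold change -1.01, SE 0.50, edgeR adjusted p = 0.391). Its log2 fold change was -0.29 without the library labelled wild type 2 and -1.49 without wild type 1. Wif1, which captures WNT outside the cell, had 37, 37 and 12 counts in EedcKO 1, 2 and 3, against 3 counts in wild type 1 and 93 counts in the library labelled wild type 2, so that both wild-type libraries lay outside the EedcKO range, on opposite sides (log2 fold change -0.72, SE 1.08, edgeR adjusted p = 0.810). That of Wif1 was 3.19 without the library labelled wild type 2 and -1.68 without wild type 1. Dkk2 (-0.43) and Sfrp4 (0.03) had overlapping groups. Dkk1, the Lrp5 and Lrp6 blocker, had 2, 1 and 4 counts in EedcKO 1, 2 and 3, against 4 counts in wild type 1 and 15 counts in the library labelled wild type 2, too few to be tested.

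None of the 11 tested ligands passed. Their median log2 fold change was -0.85, 3 were above 0 and 8 below, and 8 were highest in the library labelled wild type 2. Without that library 8 were above 0 and 3 below (median 0.43), and 2 were above 0 and 9 below without wild type 1 (median -1.33). Wnt7b and Wnt7a, which neural progenitors secrete and which brain vessels need to grow in, were the most abundant ligands per unit length (184 and 106 TPM). Wnt7b had 157, 222 and 201 CPM in EedcKO 1, 2 and 3, against 150.2 CPM in wild type 1 and 198 CPM in the library labelled wild type 2 (log2 fold change 0.15, SE 0.17, edgeR adjusted p = 0.741). Wnt7a had 65.2, 65.2 and 78.1 CPM in EedcKO 1, 2 and 3, against 71.1 CPM in wild type 1 and 66.5 CPM in the library labelled wild type 2 (log2 fold change 0.02, SE 0.11, edgeR adjusted p = 0.970). In both genes the groups overlapped. Wnt5b (0.43) overlapped as well.

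Ligands of the cortical hem differed widely between libraries of the same group. Wnt3a, the hem ligand on which hippocampal growth depends, had 35, 69 and 0 counts in EedcKO 1, 2 and 3, against 15 counts in wild type 1 and 198 counts in the library labelled wild type 2. A count of 0 in EedcKO 3 allows up to 3 counts, or 0.614 CPM, as a one-sided 95% limit. Wnt9a had 26, 73 and 5 counts in EedcKO 1, 2 and 3, against 22 counts in wild type 1 and 176 counts in the library labelled wild type 2. These neighbouring genes lie head to head on chromosome 11 (59248033 to 59290752 on the minus strand and 59306928 to 59333552 on the plus strand, mm10), 16175 bases apart with no coding gene between, and gave the 5 libraries the same order. The library labelled wild type 2 came first, then EedcKO 2, EedcKO 1, wild type 1 and EedcKO 3. Wnt2b and Rspo1 showed the same order, as did Sp5, which makes 5 of 41 tested members (12.2%), against 0.608% of all tested genes. The order was also that of 4 of the 16 tested genes of the hem and choroid plexus list. This order was read from Wnt3a after its values had been seen. Wnt3a, which is among the 5 members, thus matched by construction, and the comparison is no test. Wnt2b had 14.6, 25.8 and 3.68 CPM in EedcKO 1, 2 and 3, against 9.89 CPM in wild type 1 and 43.0 CPM in the library labelled wild type 2, and Wnt8b had 44.8, 40.9 and 15.3 CPM in EedcKO 1, 2 and 3, against 34.9 CPM in wild type 1 and 71.2 CPM in the library labelled wild type 2. For all 4 genes the EedcKO libraries fell on both sides of wild type 1, and none passed. The log2 fold changes of Wnt3a, Wnt9a, Wnt2b and Wnt8b were -1.60, -1.49, -0.85 and -0.66 over all libraries, but 1.18, 0.63, 0.58 and -0.047 without the library labelled wild type 2 (all-library edgeR adjusted p between 0.593 and 0.716). Of the hem and choroid plexus list, which holds no member, 16 of 16 tested genes were highest in the library labelled wild type 2 and 12 of 16 were lowest in EedcKO 3. No gene of the list passed. Of its 20 genes, 3, 1 and 6 were at 0 counts in EedcKO 1, 2 and 3, against 1 gene in wild type 1 and 0 genes in the library labelled wild type 2. Ttr, the transthyretin of choroid plexus, had 102, 291 and 0 counts in EedcKO 1, 2 and 3, against 147 counts in wild type 1 and 579 counts in the library labelled wild type 2. The part of hem tissue in the ligand values was not tested.

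The 250 bases before the starts of Wnt3a (chr11:59290752-59291001, minus strand) and Wnt9a (chr11:59306680-59306929, plus strand, both RefSeq, GRCm38.p6) are shown because the genes are neighbours and gave the libraries the same order. Capitals mark each CG, 41 in Wnt3a and 48 in Wnt9a, against the median of 6 over all such windows.
Wnt3a: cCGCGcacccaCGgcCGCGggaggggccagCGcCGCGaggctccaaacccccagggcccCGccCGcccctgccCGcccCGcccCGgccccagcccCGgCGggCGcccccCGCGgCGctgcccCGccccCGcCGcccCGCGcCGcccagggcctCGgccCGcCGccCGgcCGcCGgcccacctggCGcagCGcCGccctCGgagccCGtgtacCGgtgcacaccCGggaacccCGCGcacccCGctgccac
Wnt9a: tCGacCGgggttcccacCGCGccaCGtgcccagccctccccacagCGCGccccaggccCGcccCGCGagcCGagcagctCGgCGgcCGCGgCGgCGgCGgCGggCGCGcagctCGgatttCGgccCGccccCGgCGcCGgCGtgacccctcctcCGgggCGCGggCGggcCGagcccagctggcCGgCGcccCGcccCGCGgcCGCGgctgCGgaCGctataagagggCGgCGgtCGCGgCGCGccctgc

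**Figure D3:**
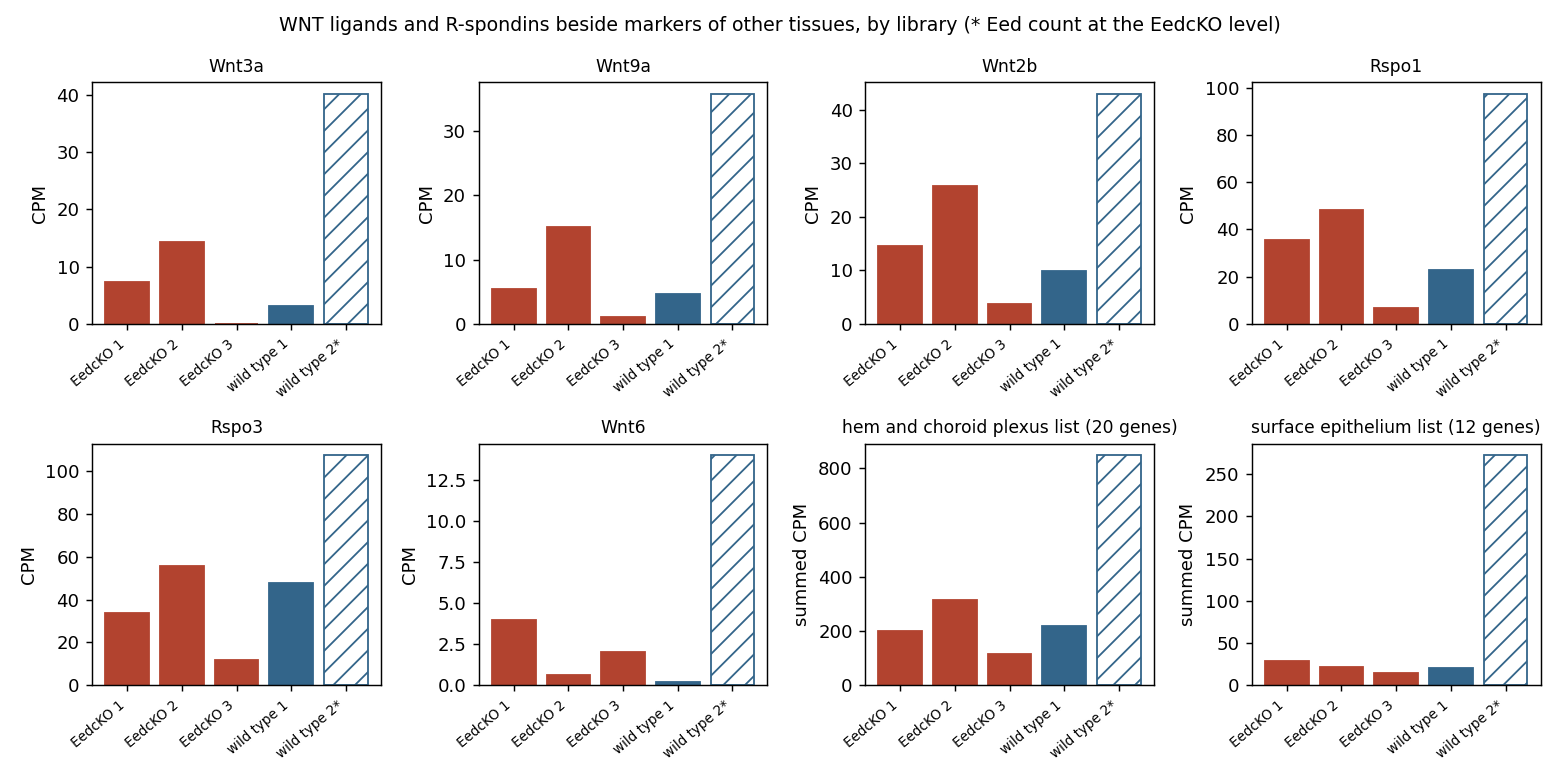
Bars from 0 give CPM of Wnt3a, Wnt9a, Wnt2b, Rspo1, Rspo3 and Wnt6 in each library, and the summed CPM of the hem and choroid plexus list and of the surface epithelium list; the hatched bar is the library labelled wild type 2. That library is highest in all 8 panels, and EedcKO 3 is the lowest in each panel except that of Wnt6.

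Other ligands were raised in the library labelled wild type 2 without that order among the rest. Wnt4 had 12, 17 and 12 counts in EedcKO 1, 2 and 3, against 12 counts in wild type 1 and 113 counts in the library labelled wild type 2. All libraries but that one held 12 to 17 counts, and the log2 fold change of -2.17 over all 5 libraries (SE 0.79, edgeR adjusted p = 0.217) was 0.17 without that library. Wnt6, a ligand of surface ectoderm, had 19, 3 and 10 counts in EedcKO 1, 2 and 3, against 1 count in wild type 1 and 69 counts in the library labelled wild type 2 (log2 fold change -1.68, edgeR adjusted p = 0.575). Wnt10a, its neighbour 6193 bases away on chromosome 1 and a ligand of skin and its appendages, had 5, 6 and 2 counts in EedcKO 1, 2 and 3, against 3 counts in wild type 1 and 31 counts in the library labelled wild type 2, and Wnt10b had 1, 1 and 0 counts in EedcKO 1, 2 and 3, against 0 counts in wild type 1 and 15 counts in the library labelled wild type 2. Both fell below the count filter. Markers of surface epithelium were high in the same library: Krt5, a basal keratin, had 20, 1 and 0 counts in EedcKO 1, 2 and 3, against 0 counts in wild type 1 and 428 counts in the library labelled wild type 2. All 7 tested genes of that list were highest there, and 1, 2 and 4 of its 12 genes were at 0 in EedcKO 1, 2 and 3, against 4 genes in wild type 1 and 0 genes in the library labelled wild type 2. The part of such tissue in the Wnt4, Wnt6 and Wnt10 values was not tested. Wnt3 (-0.86, and -0.19 without that library) and Wnt5a (-0.42, and 0.43 without it) were also highest there, with overlapping groups. The other ligands (Wnt1, Wnt2, Wnt8a, Wnt9b, Wnt11 and Wnt16) had at most 10 counts in any library. Of the 41 tested members, 22 were highest in the library labelled wild type 2, against 23.3% of all tested genes, and in 10 its CPM was at least 2 times that of the next library, against 1.48%. In 14 members EedcKO 3 was the lowest, against 17.7% of all tested genes, and in 18 wild type 1 was the lowest, against 23.0%.

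Of the R-spondin axis 6 of 7 genes were tested and none passed. Their median log2 fold change was -1.10 over all libraries, -0.11 without the library labelled wild type 2 and -1.62 without wild type 1. R-spondins are secreted partners of the Lgr receptors. Rspo1 had 35.6, 48.3 and 6.75 CPM in EedcKO 1, 2 and 3, against 22.7 CPM in wild type 1 and 97.4 CPM in the library labelled wild type 2. Rspo2 had 21.2, 36.3 and 1.23 CPM in EedcKO 1, 2 and 3, against 27.8 CPM in wild type 1 and 97.6 CPM in the library labelled wild type 2. Rspo3, made by the hem, had 33.7, 55.5 and 11.7 CPM in EedcKO 1, 2 and 3, against 48.0 CPM in wild type 1 and 107 CPM in the library labelled wild type 2. In each the library labelled wild type 2 was the highest and EedcKO 3 the lowest, and the EedcKO values spanned 7.16-fold for Rspo1, 29.6-fold for Rspo2 and 4.76-fold for Rspo3. The log2 fold changes of -0.99, -1.68 and -1.21 had SE of 0.97, 1.11 and 0.68 and did not pass (edgeR adjusted p = 0.704, 0.550 and 0.471). Without the library labelled wild type 2 they were 0.42, -0.50 and -0.51, and without wild type 1 they were -1.71, -2.33 and -1.69. The receptor Lgr5 had 3, 6 and 1 counts in EedcKO 1, 2 and 3, against 11 counts in wild type 1 and 10 counts in the library labelled wild type 2, with every EedcKO library below both wild-type libraries (log2 fold change -1.62, SE 0.64, edgeR adjusted p = 0.251). Rnf43, a ligase that clears Frizzled from the surface, had 37, 32 and 30 counts in EedcKO 1, 2 and 3, against 11 counts in wild type 1 and 82 counts in the library labelled wild type 2, and the EedcKO values lay between those of the wild-type libraries. Its relative Znrf3 had a log2 fold change of 0.07 and overlapping groups.

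None of the 3 intracellular regulators and 3 nuclear effectors passed. Axin2, a feedback inhibitor that beta-catenin induces (chromosome 11, 108920349 to 108950783, plus strand), had 96.9, 103 and 83.0 CPM in EedcKO 1, 2 and 3, against 82.0 CPM in wild type 1 and 162 CPM in the library labelled wild type 2. The EedcKO libraries were all above wild type 1 and below the library labelled wild type 2. Its log2 fold change was -0.37 over all libraries (SE 0.26, edgeR adjusted p = 0.554), 0.21 without the library labelled wild type 2 (adjusted p = 0.483) and -0.80 without wild type 1 (adjusted p = 0.0111). Nkd1, another feedback inhibitor, which acts on Dishevelled, had 77.9, 118 and 86.7 CPM in EedcKO 1, 2 and 3, against 59.7 CPM in wild type 1 and 106 CPM in the library labelled wild type 2 (log2 fold change 0.19, SE 0.27, edgeR adjusted p = 0.798). Axin1, the constitutive scaffold of the degradation complex, had 96.5, 100.3 and 109.6 CPM in EedcKO 1, 2 and 3, against 90.4 CPM in wild type 1 and 105 CPM in the library labelled wild type 2. The groups overlapped for Axin1 as well (log2 fold change 0.06, SE 0.10, edgeR adjusted p = 0.822).

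Sp5, a transcription factor directly induced by beta-catenin, had 28, 49 and 17 counts in EedcKO 1, 2 and 3, against 27 counts in wild type 1 and 139 counts in the library labelled wild type 2. The highest count was in the library labelled wild type 2 and the lowest in EedcKO 3, and the difference did not pass (log2 fold change -1.39, SE 0.68, edgeR adjusted p = 0.365). Shown next are the 250 bases before its start (chr2:70474673-70474922, plus strand, RefSeq, GRCm38.p6), because Sp5 is a canonical target in which the core letters bound by Lef1 and Tcf7 factors could be looked for. Capitals mark CTTTGA, the only form of these letters searched for, on both strands, which began 204 and 104 bases before the start. The window also holds ctttgt, which was not searched for or counted.
Sp5: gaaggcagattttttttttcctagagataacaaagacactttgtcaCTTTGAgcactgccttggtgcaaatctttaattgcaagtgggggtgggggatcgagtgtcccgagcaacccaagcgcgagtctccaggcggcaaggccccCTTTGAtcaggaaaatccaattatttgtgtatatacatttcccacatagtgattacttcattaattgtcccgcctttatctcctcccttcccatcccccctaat

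CTTTGA stood in 13.8% of all 32851 such windows and in 6 of the 42 windows of members, and 1.37% of all windows held at least 2. Lef1, a nuclear partner of beta-catenin, had 47.9, 57.2 and 59.1 CPM in EedcKO 1, 2 and 3, against 25.9 CPM in wild type 1 and 60.9 CPM in the library labelled wild type 2. The EedcKO libraries all lay above wild type 1 and below the library labelled wild type 2. The log2 fold change was 0.33 (SE 0.32, edgeR adjusted p = 0.684), but 1.09 without the library labelled wild type 2 (adjusted p = 0.00973). Tcf7, of the same factor family, had 19.2, 16.9 and 24.8 CPM in EedcKO 1, 2 and 3, against 12.6 CPM in wild type 1 and 22.3 CPM in the library labelled wild type 2 (log2 fold change 0.21, SE 0.28, edgeR adjusted p = 0.774).

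Which members passed depended in part on the wild-type library that was kept. Without the library labelled wild type 2, 6 of 41 tested members passed: Lef1, Fzd9 (0.93), Fzd1 (0.70), Sfrp1 and Fzd8 were higher in EedcKO, and Fzd5 was lower (6.2% of 14232 genes tested passed, 2.07% higher and 4.12% lower). Without wild type 1, 10 of 46 passed: Sfrp1, Fzd8 and Lrp6 (0.43) were higher, and Wnt4, Wnt6, Wnt10a, Wnt10b, Axin2, Rnf43 and Sp5 were lower (7.02% of 14409 genes, 3.01% higher and 4.02% lower). Sfrp1 and Fzd8 were past the threshold in both. Each of these fits has 1 wild-type library, which is assumed to vary like the EedcKO libraries. The count filter was run again in each, so that a gene could enter through that 1 library. Without wild type 1, Dkk1, Notum, Wnt10a, Wnt10b and Wnt11 entered only through the library labelled wild type 2. The calls of Wnt10a and Wnt10b thus rest on the same counts that let them in. No member passed without EedcKO 3, a fit in which edgeR called 0 of 13891 genes and 1886 genes, 4 of them members, had an unadjusted p under 0.05 (13.6%). None of the members passed without EedcKO 2 either, where 0.606% of 13860 genes did (6 members and 12.8% of genes at an unadjusted p under 0.05), and Fzd8 alone passed without EedcKO 1 (1.89% of 13828 genes).

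**Figure D4:**
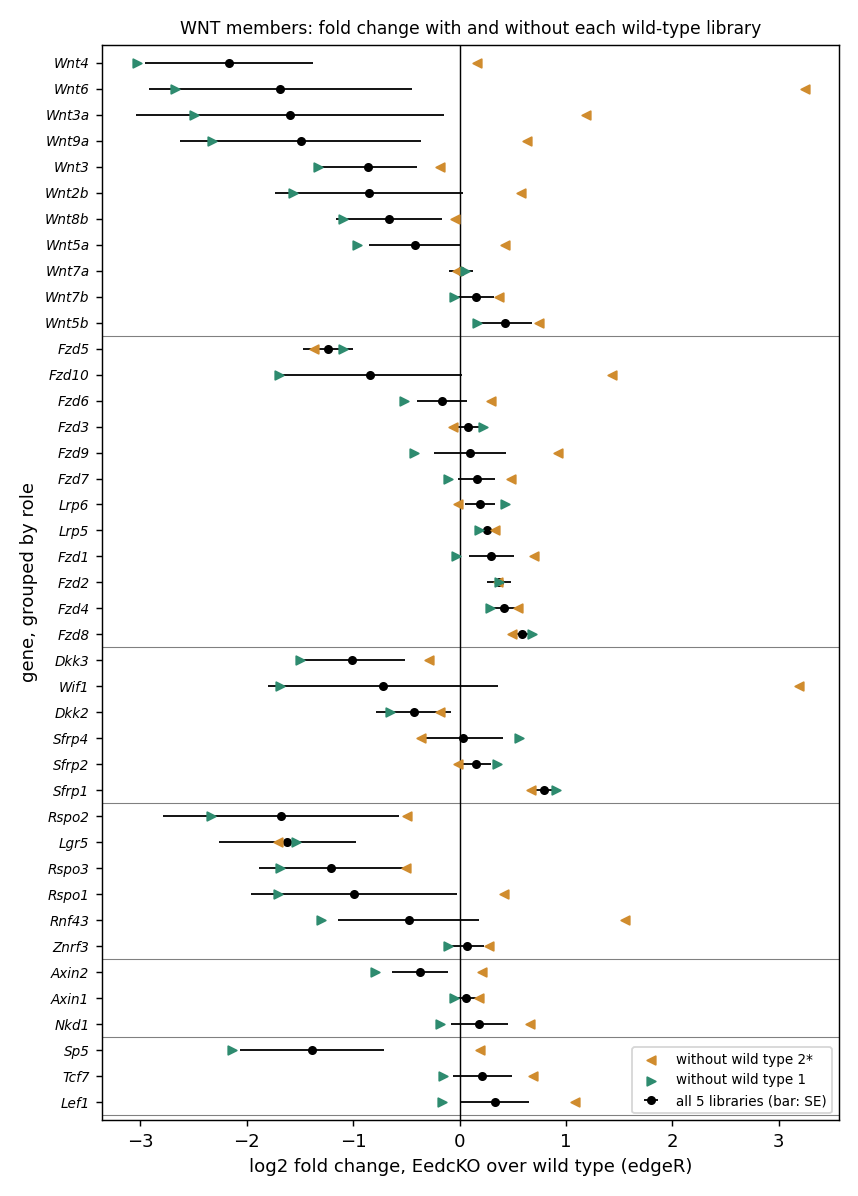
Log2 fold change of EedcKO over wild type for the 41 tested members, grouped by role; black points with SE bars use all 5 libraries, left-pointing triangles leave out the library labelled wild type 2 (starred) and right-pointing triangles leave out wild type 1. The 3 values of Sfrp1, Fzd8, Fzd2 and Fzd5 lie close together, while those of Wnt6, Wnt3a, Wif1, Fzd10 and Rnf43 fall on both sides of 0.

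Other genes of the pathway were counted from a list of 54, of which 50 were tested and 4 passed, 2 in each direction. Among all tested genes 3.2% passed (1.04% higher and 2.17% lower). Celsr1, a cadherin of planar cell polarity, had 309.6, 420.5 and 467 CPM in EedcKO 1, 2 and 3, against 163 CPM in wild type 1 and 202 CPM in the library labelled wild type 2 (log2 fold change 1.13, SE 0.19, edgeR adjusted p = 0.0276). Shisa2, whose frog relative holds Frizzled inside the cell, had 138, 145 and 182 CPM in EedcKO 1, 2 and 3, against 93.6 CPM in wild type 1 and 82.1 CPM in the library labelled wild type 2 (log2 fold change 0.82, SE 0.14, edgeR adjusted p = 0.0276). Lgr4, an R-spondin receptor, had 30.4, 18.6 and 19.4 CPM in EedcKO 1, 2 and 3, against 48.6 CPM in wild type 1 and 46.0 CPM in the library labelled wild type 2 (log2 fold change -1.05, SE 0.21, edgeR adjusted p = 0.0443). Prickle2, a cytoplasmic planar polarity protein, had 20.2, 20.6 and 18.4 CPM in EedcKO 1, 2 and 3, against 33.0 CPM in wild type 1 and 32.9 CPM in the library labelled wild type 2 (log2 fold change -0.74, SE 0.13, edgeR adjusted p = 0.0329). EedcKO and wild type were separate in each of the 4 genes, which were picked for passing the test, and in 33.8% of all tested genes. All 4 calls were lost without EedcKO 2 (adjusted p between 0.0828 and 0.133) or EedcKO 3 (between 0.108 and 0.205), that of Prickle2 also without EedcKO 1 (0.0890) and that of Celsr1 without wild type 1 (0.0647). Gpc4, a glypican that binds WNT (0.49), Tcf7l1, a mostly repressive factor of the Tcf family (0.59), the planar polarity protein Vangl2 (0.31) and the corepressor Tle1 (-0.20) had the next smallest p (edgeR adjusted p from 0.126 to 0.252). Ctnnb1, which encodes beta-catenin, had 503, 508 and 513 CPM in EedcKO 1, 2 and 3, against 504 CPM in wild type 1 and 493 CPM in the library labelled wild type 2 (log2 fold change 0.03, SE 0.09, edgeR adjusted p = 0.928). Over the 50 tested genes of the list the log2 fold change had a median of -0.0016.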

How the data were processed

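The 3 EedcKO and 2 wild-type forebrain RNA-seq libraries were grouped by sample title. The submitters' processing notes name the build mm10 and the tool HISAT2 2.2.0. The sources used here do not name the counting tool, the annotation or whether strand was used. The authors deposited whole-number counts per gene, not normalized, in 56196 rows, and TPM (length-scaled, each column summing to the same total). The 28277 rows without a symbol (2.01% to 2.16% of counts) were left out of library sizes and tests, and a second row of Fzd6 with no counts was set aside. Column totals are well below the number of mapped reads the submitters state, for a reason the sources used here do not give. The tables held 0 columns from outside the series.

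The test was edgeR 4.0.16 in R 4.3.3: filterByExpr by group, TMM, glmQLFit with robust estimation and glmQLFTest on group alone, adjusted (Benjamini-Hochberg) over 13989 genes. The standard error is the log2 fold change over the square root of F. Levels of different genes were compared in TPM only. At these depths a count of 0 allows up to 3 counts, or 0.609 to 0.631 CPM, as a one-sided 95% limit for counting error only. The two-sided 95% limit is 3.69 counts. Coordinates are from GENCODE on mm10. Without stated strand use, reads of Eed, Axin1, Axin2, Fzd3, Fzd5, Fzd6, Lef1, Lgr5, Notum, Rnf43, Rspo1, Rspo3, Rspo4, Sfrp2, Tcf7, Wnt11, Wnt5a, Wnt5b, Wnt6, Wnt7b, Prickle2, Tcf7l1, Tle1 and Ctnnb1 cannot be told apart from those of annotated genes that overlap them on the other strand.

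Alternatives were DESeq2 1.42.0, limma-voom (limma 3.58.1), RLE factors, library size alone, robust estimation off, no count filter, 1 CPM in 2 libraries, limma-trend on log2 TPM with pseudocounts of 1 and 0.1, the replicate number as a block, embryo sex as a covariate and each library left out. Members, gene lists and tests were chosen with earlier results of these data known. Named with values per library were members past the threshold, those with separate groups and an absolute log2 fold change of at least 0.5, the 2 most abundant of each role in TPM, and those whose highest library was at least 2 times the next. Of other pathway genes, those past the threshold were named, which were also the 4 with the smallest p. Fzd9, Fzd10, Wnt2b, Wnt8b, Wnt10a, Wnt10b, Dkk1, Axin2, Ctnnb1, Gpc4, Tcf7l1, Vangl2, Tle1, Emx2, Pax6, Tbr1 and Nkx2-1 were added after their values were seen.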

Additional observations from a re-analysis of the deposited data

How the results depend on the processing

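The 3 calls (Sfrp1, Fzd8 and Fzd5) and the 4 of other pathway genes were the same with RLE factors, library size alone, DESeq2, limma-voom, no count filter and 1 CPM in 2 libraries; with robust estimation off Lgr4 was lost. DESeq2 called 677 genes in all, against 448. Limma-trend on log2 TPM called 2 members and 2 other pathway genes with either pseudocount, and 1 and 1, with 174 genes in all, with no filter on low values. With embryo sex as a covariate, where the genotype effect compares EedcKO 1 with both wild-type libraries, edgeR called 0 members, 0 other pathway genes and 0 genes in all (3 members and 1611 genes at an unadjusted p under 0.05). With the replicate number as a block, edgeR also called 0 members, 0 other pathway genes and 0 genes in all (6 members and 2169 genes at an unadjusted p under 0.05). That block leaves EedcKO 3 without a partner. Same-numbered libraries deviated from their group means with correlations of -0.041 and 0.130. The deviations of 2 wild-type libraries mirror each other, so these values cannot show whether the numbers are pairs. The sample titles name no pairs, and the numbers were not taken as pairs. Leaving out 1 library in turn gave 0 to 10 members, 0 to 10 other pathway genes and 0 to 1012 genes in all.

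Of the 41 tested members, all changes of sign under the other settings were in genes that had not passed. They were Rnf43 (0.091 in limma-voom; 0.010 and 0.12 on TPM with pseudocounts of 1 and 0.1, 0.010 unfiltered), Wif1 (0.48, 0.32, 0.57 and 0.32 in the same order, and 0.39 with the block), Wnt7a (-0.077 with the block, -0.077 with sex), and with sex Axin1 (-0.018), Fzd9 (-0.015), Nkd1 (-0.088) and Wnt7b (-0.15). The cause was not tested. With 1 library left out, log2 fold changes that took both signs ran as follows: Axin1 -0.054 to 0.18, Axin2 -0.80 to 0.21, Fzd1 -0.029 to 0.70, Fzd10 -1.69 to 1.43, Fzd3 -0.062 to 0.22, Fzd6 -0.52 to 0.30, Fzd7 -0.11 to 0.48, Fzd9 -0.43 to 0.93, Lef1 -0.17 to 1.09, Lrp6 -0.017 to 0.43, Nkd1 -0.18 to 0.66, Rnf43 -1.30 to 1.56, Rspo1 -1.71 to 0.42, Sfrp2 -0.017 to 0.35, Sfrp4 -0.36 to 0.56, Sp5 -2.14 to 0.19, Tcf7 -0.15 to 0.69, Wif1 -1.68 to 3.19, Wnt2b -1.57 to 0.58, Wnt3a -2.57 to 1.18, Wnt4 -3.03 to 0.17, Wnt5a -0.96 to 0.43, Wnt6 -2.67 to 3.25, Wnt7a -0.077 to 0.059, Wnt7b -0.052 to 0.37, Wnt9a -2.65 to 0.63, Znrf3 -0.11 to 0.27. Low counts left 13 members untested.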
